A study of Rattus norvegicus with 4 samples.

Results

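The vesicle fusion and exocytosis genes were 77 genes of the 32883 in the deposited gene list. They were taken by symbol: names that match Syt, Snap, Stx, Vamp or Cplx followed by a digit, or that start with Stxbp, Unc13, Rims, Rab3 or Doc2. Of 83 symbols that matched, 77 had at least 50 unique molecular identifiers (UMIs, each a tagged messenger RNA molecule) summed over all cells that passed the filters. The lowest genes kept were Doc2a with 53 UMIs, Rims3 with 91 and Syt15 with 142. The highest left out were Syt10 with 41 UMIs and Rab37 with 25, followed by Cplx3, Cplx4, Syt2 and Syt8 with 12, 10, 6 and 3. The letters also took in 10 small GTPases numbered in the thirties, which are not Rab3 proteins, and Snap91, a clathrin assembly protein and no SNARE. Snap23 was not analysed here.

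The study measured messenger RNA in single pituitary cells of female Sprague Dawley rats aged 75 days, taken at random stages of the oestrous cycle. Glands of 30 rats were dissected, pooled and dispersed as anterior and posterior lobes, with 1 library each. A pool of 30 whole glands was dispersed as 1 suspension and loaded on 2 lanes of the droplet device. The lanes are technical repeats and were summed, so that each cell class had 2 values, from the dissected and from the whole-gland preparation. The rats carried no named allele and no treatment was given.

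Regulated secretion ends with the fusion of a vesicle with the plasma membrane. A SNARE on the vesicle (a VAMP) zips together with SNAREs on the target membrane (a syntaxin and a SNAP protein), while Munc13 proteins prepare the syntaxin, Rab3 and RIM proteins hold the vesicle at the membrane, and complexins and synaptotagmins tie fusion to calcium. Hormone cells of the anterior and intermediate lobes release peptide granules by this route, and other SNAREs carry traffic between endosomes, the Golgi apparatus and the endoplasmic reticulum in every cell.

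The libraries held 7424 to 8550 barcodes each, of which 3829 to 5541 were kept as cells, with median depths of 9556 to 10604 UMIs per cell. Pairs of libraries shared 2 to 10 barcode sequences. Clusters were named from marker genes and keep the ending "-like", since no annotation by the authors was used; the 77 genes themselves were left out of the clustering. The tests used 11 classes. Of these, 6 were endocrine (lactotroph-like, somatotroph-like, corticotroph-like, melanotroph-like, gonadotroph-like and thyrotroph-like) and 5 non-endocrine (folliculostellate-like, pituicyte-like, endothelial-like, fibroblast-like and macrophage-like). Cell numbers ran from 49 thyrotroph-like cells in the dissected anterior library to 3454 lactotroph-like cells in the whole glands. Among the 10 leading genes of 1 endothelial-like cluster were 3 markers of red blood cells, and 1 pituicyte-like cluster was shallow, with a median of 1897 UMIs. Hormone RNA was present in every class: folliculostellate-like cells held 37796 and 29581 CPM (UMIs scaled to a common library total) of Prl, the prolactin gene, in the dissected and the whole preparation. The share of UMIs estimated as free RNA was 1.24% to 11.7% in endocrine and 1.58% to 21.2% in non-endocrine sums. It was estimated from Prl and Gh1, taken as free outside their own class, relative to the pooled cells of each library. Where free RNA was subtracted, the profile of these pooled cells was removed in that share.

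Levels below are CPM normalized over the 22 sums of class and preparation and are given as dissected and whole-gland value. The assay counts 3′ ends, so levels are compared between classes for 1 gene. A gene was called higher or lower at a Benjamini-Hochberg adjusted p under 0.05 over 14785 genes and an absolute log2 change of at least 1, with edgeR's quasi-likelihood test. Of the 77 genes 75 entered the test; Stx7 and Doc2a were too low. With 2 preparations, the p-values set the difference between classes against the spread left after the terms for class and preparation. Spread among the classes of a group is not part of it. In contrasts of several classes the log levels were averaged over classes.

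In all 11 classes, 14 of the 77 genes reached 10 CPM in both preparations, among them Vamp2, Vamp3, Vamp4, Vamp7, Vamp8, Stx4, Stx5, Stx6, Stx8, Stx12, Stx18, Stxbp3 and Rab3gap1. Another 14 genes reached that level in no class. The highest class was endocrine for 45 genes and non-endocrine for 32, by the mean of both preparations. As 6 of the 11 classes were endocrine, most genes can fall there by number of classes alone. Shares over all genes are not given for these counts of highest classes. That class was macrophage-like for 15 genes, melanotroph-like for 13 and thyrotroph-like for 12. Both of its values lay above all values of the other classes for 10 of the macrophage-like, 5 of the melanotroph-like and 5 of the thyrotroph-like genes, and for 6 of 8 lactotroph-like ones. Melanotroph-like cells had 48 genes at 10 CPM or more in both preparations, and endothelial-like cells had 29, the lowest number of any class. On the scale of log2(CPM + 1), preparations differed over 2-fold in 19 of 485 pairs of gene and class that reached 10 CPM, and 9 of these were in fibroblast-like cells, which were among the smallest sums.

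**Figure D1:**
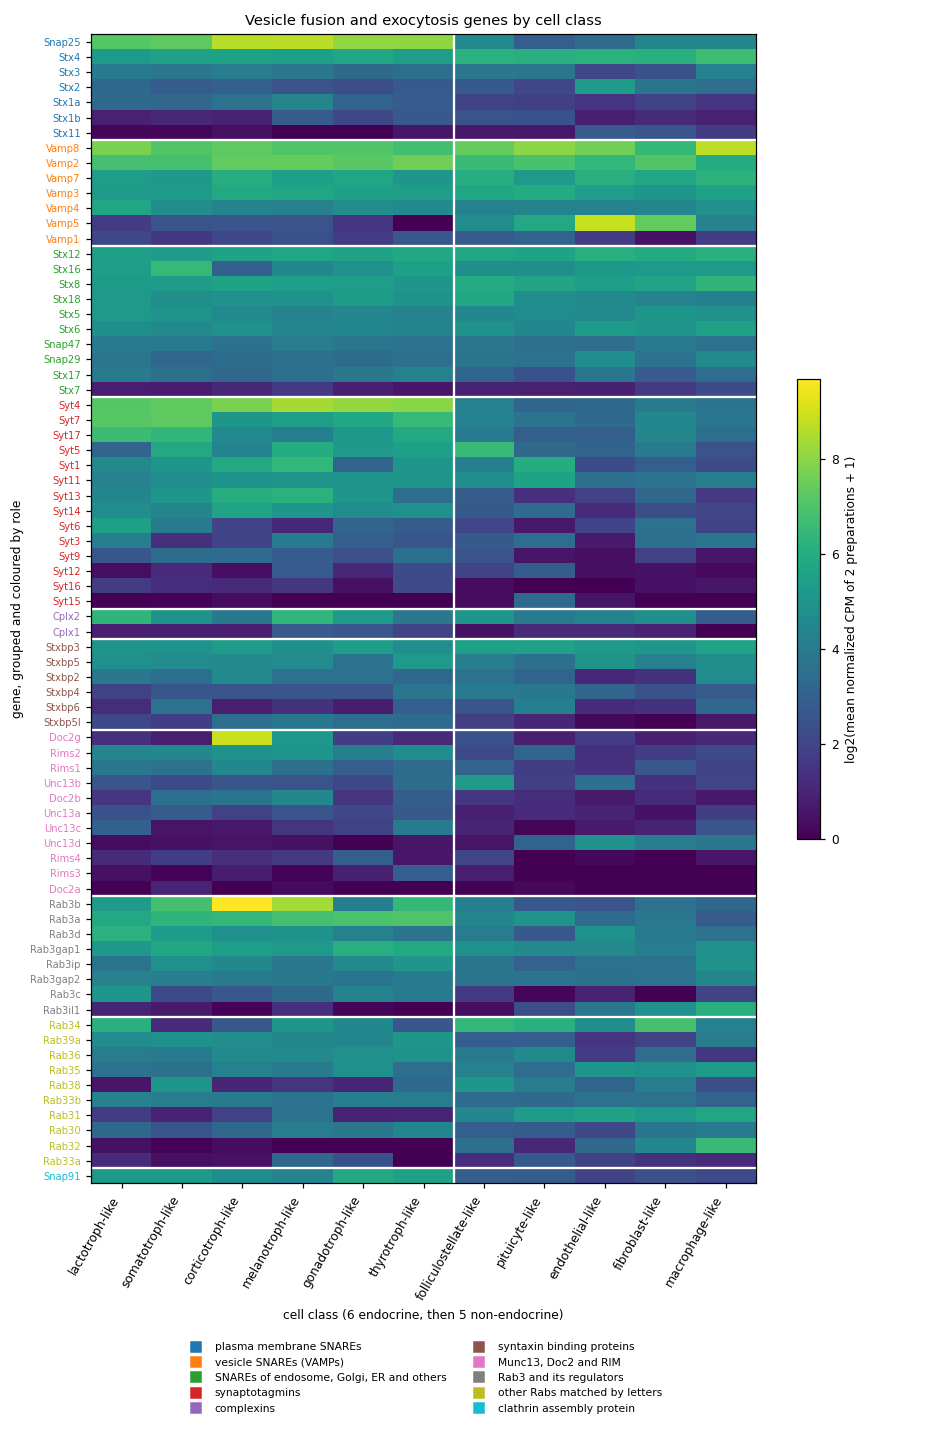
Normalized level of the genes (rows, grouped by role; 1 of the 77 is not shown) in the 11 cell classes (columns), as log2 of the mean CPM of both preparations plus 1; yellow marks the highest and dark blue the lowest levels. Vamp2, Vamp3, Vamp7, Vamp8, Stx4, Stx8 and Stx12 are at intermediate or high levels in every column. Snap25 and Syt4 stand out in endocrine columns, Rab3b most in the corticotroph-like and melanotroph-like ones, and Vamp5 and Rab32 in non-endocrine ones.

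Endocrine and non-endocrine classes were compared first. Of the 75 genes tested, 31 were higher in endocrine classes, against 12.9% of all genes tested, and 10 were lower, against 21% of all genes. The median log2 change was 0.59 over the 75 genes and -0.13 over all genes. Without the other Rabs and Snap91, 28 of 64 genes were higher and 5 lower.

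Among the 7 plasma membrane SNAREs tested, 2 were higher, 1 lower and 4 not called. Snap25, the SNAP protein of regulated exocytosis, stood at 426 and 363 CPM in corticotroph-like cells and 425 and 382 in melanotroph-like cells. It stood at 273 and 274 in gonadotroph-like, 273 and 268 in thyrotroph-like, 157 and 146 in somatotroph-like and 144 and 134 CPM in lactotroph-like cells. In the non-endocrine classes its values ran from 5.03 in pituicyte-like cells of the dissected glands to 26.6 CPM in fibroblast-like cells of the whole glands. No endocrine value overlapped a non-endocrine one, and the change was 4.23 on the log2 scale (SE 0.08, edgeR adjusted p = 5.2e-23). With free RNA subtracted it was 5.35. That step removes a pooled profile that includes the hormone cells, so it tends to enlarge a change of this kind. Stx1a, the syntaxin partner of Snap25, was rarer, with its highest level in melanotroph-like cells (16.8 and 23.3 CPM) and at most 4.04 CPM in any non-endocrine value. Its change was 2.0 (SE 0.24, edgeR adjusted p = 7.1e-08), although the lowest thyrotroph-like value (3.92 CPM) lay inside the non-endocrine range. Stx4, the more widely used plasma membrane syntaxin, had non-overlapping values of 36 to 56.1 CPM in endocrine and 64.7 to 103 CPM in non-endocrine classes; its log2 change of -0.75 (SE 0.06) did not reach the size rule.

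VAMPs, the vesicle SNAREs, gave no higher gene among 7. Vamp2, the VAMP of synaptic and dense-core vesicles, ranged from 109 to 197 CPM in endocrine and from 57.2 to 136 CPM in non-endocrine values, with a log2 change of 0.63 (SE 0.05) under the size rule. Vamp8, a VAMP of endosomes and of granules in exocrine and immune cells, was at 371 and 459 CPM in macrophage-like and 86.5 and 87.0 CPM in fibroblast-like cells, with endocrine values between these (log2 change -0.48, SE 0.05, not called). The abundant VAMPs therefore overlapped between both kinds of cell.

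Vamp5, a VAMP first described in muscle and found at the plasma membrane, was the exception. It stood at 402 and 529 CPM in endothelial-like cells, 135 and 188 in fibroblast-like cells and 51.3 and 60.7 CPM in pituicyte-like cells. Endocrine values were at most 5.32 CPM, and thyrotroph-like cells held 0 UMIs, which allows up to 1.83 CPM. The change was -5.75 (SE 0.15, edgeR adjusted p = 1.4e-19) and no values overlapped. The 9 SNAREs of endosome, Golgi and endoplasmic reticulum that were tested gave no call in either direction, with a median log2 change of -0.09.

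Synaptotagmins, the family that holds the calcium sensors of fusion, were the most frequent group among the higher genes: 10 of 14 were higher and none was lower. Syt4, a dense-core vesicle synaptotagmin with weak calcium binding, ranged from 136 CPM in lactotroph-like to 359 CPM in melanotroph-like cells and was at most 18.4 CPM in any non-endocrine value (log2 change 4.37, SE 0.09, edgeR adjusted p = 9.9e-22). Syt7, a sensor of high calcium affinity, ran from 33.0 to 157 CPM in endocrine and from 7.17 to 26.6 CPM in non-endocrine values. Its change was 2.39 (SE 0.08). Neither gene overlapped between the kinds of cell. Syt14 changed in the same direction without overlap (2.95, SE 0.13), and Syt13, at 77.3 and 64.0 CPM in melanotroph-like cells, with overlap (3.33, SE 0.21). Syt1, the fast calcium sensor of synapses, was higher on average (1.63, SE 0.16), yet pituicyte-like cells at 73.0 and 51.1 CPM exceeded 5 of the 6 endocrine classes in the dissected and 4 in the whole glands. Syt5 was higher by 1.25 (SE 0.12), yet its highest class was folliculostellate-like, at 94.6 and 89.0 CPM; without the posterior library the change was 0.97 and under the size rule. Syt17 was higher by 2.04 (SE 0.09).

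Complexins, which clamp and then release the assembled SNAREs, were uneven. Cplx1 was called higher (2.45, SE 0.61, edgeR adjusted p = 0.0011), but no value passed 7.22 CPM, and without the posterior library its adjusted p was 0.057. Cplx2 was at 82.7 and 75.1 CPM in lactotroph-like and 77.7 and 84.3 CPM in melanotroph-like cells, and between 5.40 and 37.3 CPM in non-endocrine values; its log2 change of 0.96 (SE 0.13) fell just under the size rule and passed it, at 1.02 to 1.36, under 7 of 14 alternatives.

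Of the 7 syntaxin-binding proteins, 3 were higher and 1 lower. Stxbp2, known from granule release in blood cells, was higher in endocrine classes by 1.23 (SE 0.16), but its level in macrophage-like cells, 23.9 and 24.5 CPM, was as high as in corticotroph-like cells, 24.4 and 23.3 CPM.

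Among 10 priming and tethering genes of the Munc13, Doc2 and RIM families, 8 were higher and 1 lower. Rims2, a scaffold that binds Rab3 on the vesicle, ran from 15.7 to 34.6 CPM in endocrine values and from 0.652 to 9.64 CPM in non-endocrine ones, without overlap (2.81, SE 0.15). Rims1 (1.86, SE 0.17), Doc2b (2.47, SE 0.28) and Unc13a, the priming factor of most synapses (2.19, SE 0.26), were higher at lower levels; Unc13a was at most 7.83 CPM. Unc13d (Munc13-4), the priming factor of blood cell granules, was the lower gene of this group. It stood at 29.1 and 27.7 CPM in endothelial-like cells and at most 0.979 CPM in endocrine values (-4.94, SE 0.35, edgeR adjusted p = 1.5e-11).

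Doc2g, the member of the calcium-binding Doc2 family reported to lack strong calcium dependence, was the gene most tied to 1 class by level. Corticotroph-like cells held 511 and 448 CPM and melanotroph-like cells 44.1 and 24.8 CPM. The other 9 classes were at most 6.45 CPM. Its change between endocrine and non-endocrine classes was 2.01 (SE 0.57, edgeR adjusted p = 0.0035), and this call was lost with free RNA subtracted (adjusted p = 0.19), without the anterior library (0.052) and without whole-gland lane 2 (0.059). The 4 libraries taken singly gave 510, 490, 458 and 437 CPM in corticotroph-like cells, for anterior, posterior and the lanes of the whole glands, all of them far above the other classes.

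Rab3 proteins are the GTPases that mark secretory vesicles. Rab3a, Rab3b, Rab3c and Rab3d were all higher in endocrine classes. Rab3b reached 832 and 798 CPM in corticotroph-like and 323 and 316 CPM in melanotroph-like cells; in gonadotroph-like cells, at 12 and 21.9 CPM, it overlapped the non-endocrine values of 3.04 to 21.5 CPM. Its change was 3.81 (SE 0.12, edgeR adjusted p = 2.2e-18). Rab3a ran from 49.6 CPM in lactotroph-like to 131 CPM in thyrotroph-like cells, and from 5.78 to 34.5 CPM in non-endocrine values, without overlap (2.75, SE 0.08). Rab3c had the largest positive change of the list, 4.65 (SE 0.26, edgeR adjusted p = 3.3e-13), at levels that peaked at 35.5 and 30.0 CPM in lactotroph-like cells. Rab3d was at 70.1 and 71.7 CPM in lactotroph-like cells and at 25.7 and 32.6 CPM in endothelial-like cells; its change of 1.02 (SE 0.12) fell to 0.96 with coarser clusters and 0.99 with doublets kept. Of the Rab3 regulators, Rab3il1, an exchange factor that also binds Rab8, was lower (-5.12, SE 0.45), with its peak in macrophage-like cells at 77.5 and 56.0 CPM.

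The 10 other Rabs differed from the Rab3 genes in direction: 5 were lower and 2 higher. Rab32, which serves lysosome-related organelles, held 85.6 and 93.9 CPM in macrophage-like cells and at most 0.367 CPM in any endocrine value (-7.69, SE 0.37, edgeR adjusted p = 1.1e-13). Rab31, of endosome to Golgi traffic, ran from 0 to 11.3 CPM in endocrine and from 19.5 to 53.7 CPM in non-endocrine values (-4.21, SE 0.13). Rab38, the near relative of Rab32, was lower (-2.31, SE 0.17), as was Rab34, of Golgi and cilium (-2.21, SE 0.11). Both were abundant in some endocrine cells, as described below: Rab38 in somatotroph-like and Rab34 in lactotroph-like and melanotroph-like cells. Rab39a (2.37, SE 0.10) and Snap91 (2.99, SE 0.11) were higher without overlap.

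**Figure D2:**
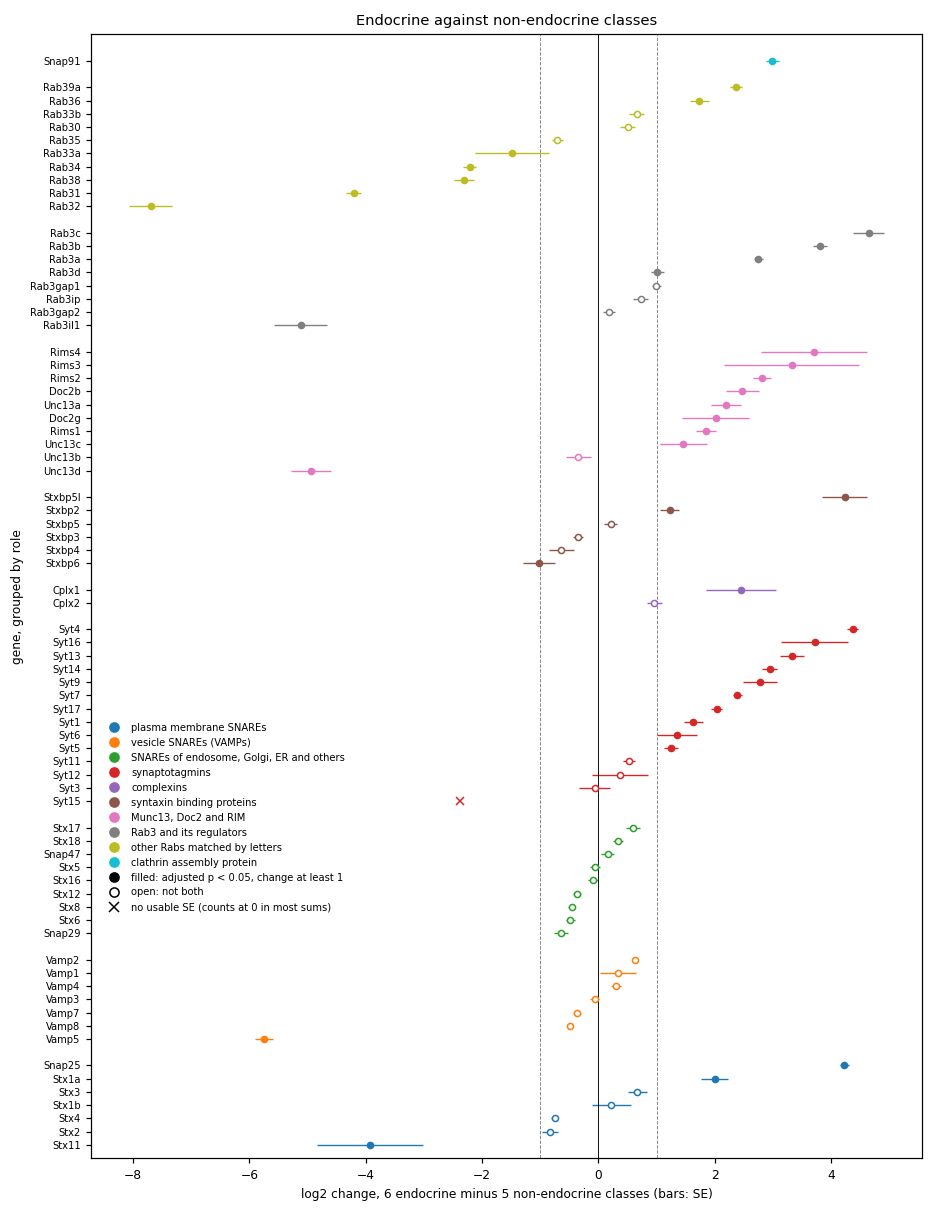
Log2 change (endocrine minus non-endocrine classes, horizontal axis) with its SE for the genes tested, grouped by role (1 of the 75 is not shown); filled points passed both rules and the cross marks Syt15, which had no usable SE. Synaptotagmins, Rab3 and priming genes lie mostly to the right of 0, with Rab3c at 4.65 and Syt4 at 4.37, and Vamp5, Rab3il1, Unc13d and Rab32 lie far to the left.

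Other genes of the pathway, on a separate list of SNARE, exocyst, vesicle membrane, priming and adaptor genes, gave 16 higher and 3 lower of 55 tested (29.1% and 5.45%, against 12.9% and 21% of all genes). Of 19 priming and tethering genes tested, 12 were higher. Syp (synaptophysin), a membrane protein of vesicles, had means of 140.3 and 134.7 CPM in endocrine against 8.38 and 12.8 CPM in non-endocrine classes (4.03, SE 0.11). Ppfia2 (3.94, SE 0.24) and Pclo (3.04, SE 0.12), scaffolds of release sites, were also higher. Sypl1 (-1.15) and Syngr2 (-1.79), broadly used relatives of synaptic vesicle proteins, were lower. None of 7 exocyst subunits, 4 genes of NSF and its adaptors and 5 further genes of the Sec1 family was called.

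Doc2g and Rab3b in corticotroph-like cells and Vamp5 in endothelial-like cells were each highest in 1 class, at over 400 CPM in both preparations. Their promoters, 300 bases around the annotated start, are shown from RefSeq in the GRCr8 build, 5′ to 3′ on the strand of the gene, at chr1:210725578-210725877 on the plus strand, chr5:128858841-128859140 on the plus strand and chr4:105993198-105993497 on the minus strand. Capitals mark the motif CANCTG, a form of the E-box, read on both strands.
Doc2g: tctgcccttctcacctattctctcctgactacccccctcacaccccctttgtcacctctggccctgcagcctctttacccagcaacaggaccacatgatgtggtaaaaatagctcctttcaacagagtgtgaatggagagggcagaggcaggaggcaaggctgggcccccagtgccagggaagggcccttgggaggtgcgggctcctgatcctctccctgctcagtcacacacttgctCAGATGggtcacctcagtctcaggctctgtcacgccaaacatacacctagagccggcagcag
Rab3b: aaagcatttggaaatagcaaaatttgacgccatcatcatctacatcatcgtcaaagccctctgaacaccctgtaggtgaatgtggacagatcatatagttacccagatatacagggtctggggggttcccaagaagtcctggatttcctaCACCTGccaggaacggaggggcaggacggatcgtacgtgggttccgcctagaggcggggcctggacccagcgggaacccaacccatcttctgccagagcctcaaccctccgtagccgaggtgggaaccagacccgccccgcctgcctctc
Vamp5: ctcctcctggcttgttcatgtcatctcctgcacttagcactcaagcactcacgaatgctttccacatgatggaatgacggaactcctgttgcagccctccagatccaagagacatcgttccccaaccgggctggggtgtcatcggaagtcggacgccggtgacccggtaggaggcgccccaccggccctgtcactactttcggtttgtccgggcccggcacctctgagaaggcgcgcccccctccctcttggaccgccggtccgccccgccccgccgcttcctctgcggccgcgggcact
Doc2g and Rab3b held 1 match each and Vamp5 held 0. This motif was found in 47 of 73 promoters of 59 matched genes of the list (64.4%) and in 50.2% of 33469 promoters of all genes. The GC box GGGCGG, on either strand, was found in 68.5% and 33.1%, with 1 match in Rab3b, 2 in Vamp5 and 0 in Doc2g. The cyclic AMP response element TGACGTCA was found in 1.37% and 1.83%. The genes of the list had passed a UMI filter in these cells, and the promoters of all genes had not. The 2 shares of a motif are therefore of unlike sets and were not tested. Genes of the list can share a promoter window, and a match is a run of letters only.

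Differences among endocrine classes were tested next. Any difference among the 6 classes was called for 52 of the 75 genes, against 50.3% of all genes tested. These were 12 of 14 synaptotagmins, 8 of 10 genes of the Munc13, Doc2 and RIM group and 2 of 9 SNAREs of endosome and Golgi, beside others. Each class was then set against the other endocrine classes; these comparisons share their sums and are not independent.

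Lactotroph-like cells had 12 genes higher (9.09% of all genes) and 11 lower (7.42%). Syt6, a synaptotagmin of the disulfide-linked subfamily, was at 47.6 and 41.2 CPM there, and the next class, somatotroph-like, was at 15.7 and 13.9 CPM (3.59, SE 0.15, edgeR adjusted p = 2.4e-15). Rab34 stood at 66.2 and 72.0 CPM, against 0.688 and 1.73 CPM in somatotroph-like cells (3.17, SE 0.12). Rab3c (1.89, SE 0.10), Syt3, a high-affinity sensor of the plasma membrane (1.89, SE 0.16), Rab3d (1.60, SE 0.09) and Cplx2 (1.51, SE 0.11) were also higher. Syt5 was lower, at 7.80 and 8.13 CPM (-2.36, SE 0.13). Snap25 was lower (-1.02, SE 0.09), and under 5 of 14 alternatives the change was between -0.95 and -0.88, under the rule.

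Somatotroph-like cells had 7 higher genes (7.24% of all genes) and 11 lower ones (6.79%). Rab38 was at 29.4 and 35.8 CPM there and at most 9.79 CPM in the other endocrine classes (4.44, SE 0.14, edgeR adjusted p = 8.8e-17). Stxbp6 (amisyn), which competes with VAMPs for SNARE complexes, was at 10.7 and 12.1 CPM (2.97, SE 0.19). Stx16, a syntaxin of the Golgi, was at 83.7 and 94.1 CPM against 4.46 and 9.24 CPM in corticotroph-like cells (1.89, SE 0.08). Syt7 was higher (1.31, SE 0.07); its 152 and 157 CPM lay close to the 138 and 147 CPM of lactotroph-like cells. Syt17 was higher (1.13, SE 0.08), and Rab34 (-3.61, SE 0.33) and Rab3c (-1.96, SE 0.15) were lower.

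Corticotroph-like cells had 9 higher genes (7.46% of all genes) and 12 lower ones (5.74%). Doc2g was higher by 7.47 (SE 0.14, edgeR adjusted p = 1.6e-21) and Rab3b by 3.47 (SE 0.09, adjusted p = 1.1e-18). Across 14 alternatives Doc2g stayed between 7.16 and 9.13. Rims1 (1.16, SE 0.15) was higher, and Stx16 (-2.40, SE 0.16) and Syt7 (-1.33, SE 0.10) lower.

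Melanotroph-like cells had 17 higher genes (9.87% of all genes) and 3 lower ones (5.44%). Doc2b, a calcium sensor of slow release, was at 27.6 and 15.8 CPM (2.27, SE 0.22), Rab31 at 11.3 CPM in both preparations (2.90, SE 0.27) and Syt1 at 81.6 and 85.0 CPM (1.70, SE 0.15). Syt17 was lower, at 14.2 and 20.3 CPM (-1.75, SE 0.15). Snap91, at 17.9 and 19.6 CPM, was lower (-1.04, SE 0.14), and 3 of 14 alternatives left this between -0.98 and -0.97.

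Gonadotroph-like cells had 5 higher genes (8.96% of all genes) and 8 lower ones (4.45%). Rab3b was lower there, at 12 and 21.9 CPM (-3.15, SE 0.17), as was Syt1, at 6.53 and 8.67 CPM (-2.36, SE 0.23). Stxbp5 (tomosyn), which holds syntaxin away from VAMP, was lower (-1.31, SE 0.20). Rab35, of the recycling endosome, was higher at 27.5 and 27.7 CPM (1.12, SE 0.13), and lost the size rule without the anterior library (0.83).

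Thyrotroph-like cells, the smallest sums among endocrine classes, had 6 higher genes (4.86% of all genes) and 4 lower ones (1.66%). Unc13c (Munc13-3) was at 14.5 and 15.7 CPM, against 7.80 and 6.40 CPM in lactotroph-like and under 4 CPM in the other endocrine classes (3.45, SE 0.49, edgeR adjusted p = 1.9e-05). Stxbp4, a partner of Stx4, was higher (1.58, SE 0.46, edgeR adjusted p = 0.026), and its adjusted p was 0.24 without whole-gland lane 2. Rab3d (-1.53, SE 0.29) and Syt13 (-1.88, SE 0.34) were lower.

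**Figure D3:**
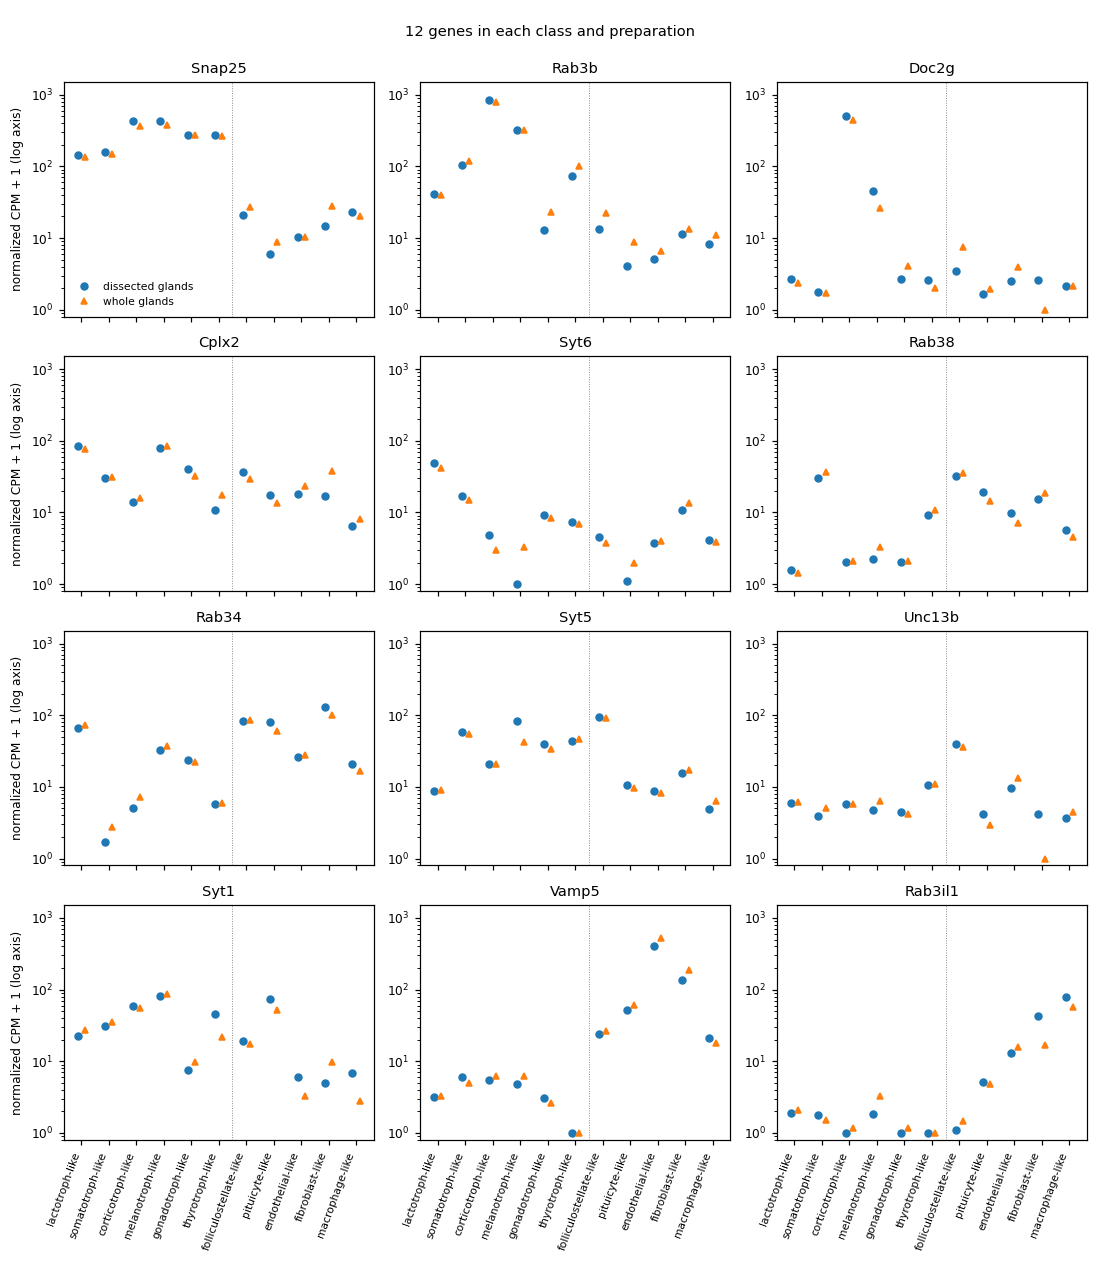
Normalized CPM plus 1 (log axis) of 12 genes in the 11 classes, with circles for the dissected and triangles for the whole-gland preparation. Both symbols lie close together at the peak of each gene: Doc2g and Rab3b in corticotroph-like, Syt6 in lactotroph-like, Rab38 in somatotroph-like and folliculostellate-like, Vamp5 in endothelial-like and Rab3il1 in macrophage-like cells.

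Within a family, the leading member differed between some classes and was shared by others. These shares are of UMIs of the family in a sum and were not tested. No correction was made for how well the 3′ end of each gene is counted, so they are shares of counts only. Rab3b made up 87.1% and 87.6% of Rab3a to Rab3d UMIs in corticotroph-like and 68.4% and 67.4% in melanotroph-like cells. In gonadotroph-like cells Rab3a made up 71.6% and 66.6%, and in pituicyte-like cells 75.4% and 71.8%. Rab3d reached 33.6% and 37.8% in lactotroph-like cells and was the main form in endothelial-like cells, at 61.9% and 69.4%.

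Syt4 made up 53.8% and 52.5% of synaptotagmin UMIs in gonadotroph-like cells, and Syt7 25.3% and 26.9% in lactotroph-like cells. In folliculostellate-like cells Syt5 made up 42.6% and 42.7%, and in pituicyte-like cells Syt1 made up 37.7% and 29.9%. Among Munc13 genes, Unc13b was 94.5% and 94.1% in folliculostellate-like cells, Unc13d 74.6% and 65.9% in endothelial-like cells, Unc13a 62.5% and 55.4% in somatotroph-like cells and Unc13c 45.1% and 39.1% in lactotroph-like cells. Some of these forms were shared, among them Syt7, which stood at similar CPM in lactotroph-like and somatotroph-like cells. Unc13d also led in pituicyte-like (67.2% and 66.7%), fibroblast-like (81.5% and 88.9%) and macrophage-like cells (41.9% and 70%), and Unc13c in thyrotroph-like cells (52.9% and 45.7%). The Munc13 family is rare, with 9 UMIs in the smallest sum. Among VAMPs, Vamp8 was 60.1% and 68.2% in macrophage-like cells, Vamp5 49.6% and 56.9% in endothelial-like cells and Vamp2 46.7% and 48.2% in thyrotroph-like cells. Vamp8 also led in lactotroph-like (45.4% and 46.8%), pituicyte-like (44.4% and 48.0%), somatotroph-like and folliculostellate-like cells. Vamp2 also led in melanotroph-like (40.1% and 39.3%) and gonadotroph-like cells (38.0% and 34.9%).

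**Figure D4:**
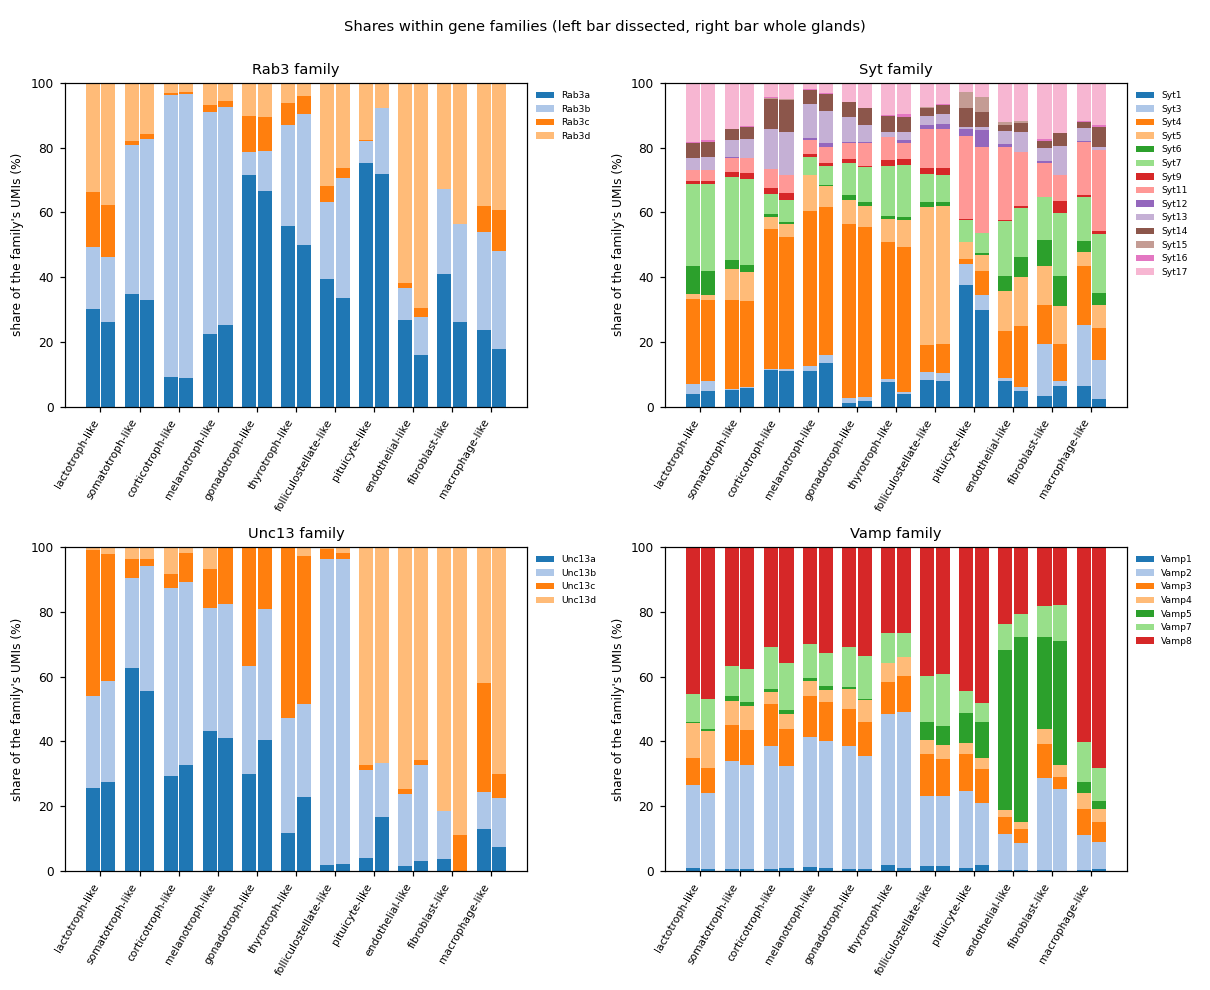
Share of each member in the UMIs of its family (percent, stacked bars from 0) for Rab3a to Rab3d, synaptotagmins, Munc13 genes and VAMPs, with a bar for each class and preparation. Rab3b fills 87.1% and 87.6% of the corticotroph-like bars and Unc13b 94.5% and 94.1% of the folliculostellate-like bars.

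Melanotroph-like and corticotroph-like cells both express Pomc, the precursor of ACTH and of melanocyte-stimulating hormone, and were compared directly. In the dissected preparation the melanotroph-like sum comes from the posterior and the corticotroph-like sum from the anterior library. Of the 75 genes, 11 were higher in melanotroph-like cells (8.45% of all genes) and 6 lower (6.31% of all genes), and the median log2 change was 0.06 against 0.00 over all genes. Rab34 was at 32.1 and 36.1 against 4.12 and 6.11 CPM (2.60, SE 0.25). Cplx2 was at 77.7 and 84.3 against 13.1 and 14.9 CPM (2.47, SE 0.19, edgeR adjusted p = 7.4e-10). Syt3 (2.04, SE 0.35), Rab31 (2.03, SE 0.33), Syt5 (1.78, SE 0.18) and Stx16 (1.48, SE 0.21) were also higher; Stx16 was at 0.85 with doublets kept.

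Among the lower genes in melanotroph-like cells were Doc2g (-3.62, SE 0.18, edgeR adjusted p = 4.2e-13), Rab3b (-1.33, SE 0.13), Rims1 (-1.09, SE 0.20) and Stxbp2 (-1.05, SE 0.17). Without the posterior library, which leaves the melanotroph-like class its 115 whole-gland cells, 3 genes were lower in place of 6, and the calls of Rims1 (adjusted p = 0.14) and Stxbp2 (0.066) were lost. Snap25, Vamp2, Rab3a and Syt4 did not pass the rules: Snap25 had a log2 change of 0.05 (SE 0.11), Vamp2 of 0.06 (SE 0.10), Rab3a of 0.37 (SE 0.12) and Syt4 of 0.63 (SE 0.13). Whole-gland melanotroph-like cells held 25918 CPM of Prl and dissected ones 1994 CPM. On the pathway list, 6 of 55 genes were higher and 2 lower. Syn2 (synapsin), which tethers vesicles, was at 32.2 and 30.9 against 1.72 and 1.25 CPM (4.44, SE 0.29), Myrip, a link from Rab27 to myosin, at 16.0 and 18.8 against 1.03 and 2.19 CPM (3.15, SE 0.30), and Syngr1 was higher by 1.51 (SE 0.21). Pclo was lower (-1.28, SE 0.16), as was Sypl1 (-1.04, SE 0.17), whose call was lost under 6 of 14 alternatives.

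Among the non-endocrine classes, any difference was called for 57 of 75 genes, against 72.3% of all genes. Folliculostellate-like cells had 23 higher genes (16.2% of all genes) and 5 lower ones (9.23%). These cells are the glia-like, agranular cells of the anterior lobe that the series is about. Syt5 was at 94.6 and 89.0 CPM, above every other non-endocrine value, the next being 16.0 CPM (3.49, SE 0.14, edgeR adjusted p = 5.3e-16). Unc13b (Munc13-2), a priming factor, was at 38.4 and 34.5 CPM, with no other class of either kind above 12.4 CPM (3.23, SE 0.16). Rab38 (1.75, SE 0.13) and Stx18, a syntaxin of the endoplasmic reticulum (1.42, SE 0.10), were also higher.

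Pituicyte-like cells, the glia-like cells of the posterior lobe, had 13 higher genes (15.1% of all genes) and 16 lower ones (18.8%). Syt1 was at 73.0 and 51.1 CPM (3.45, SE 0.20, edgeR adjusted p = 4.7e-13), and the next non-endocrine class was folliculostellate-like at 18.2 and 16.4 CPM. Syt11, a synaptotagmin that binds no calcium, was at 49.7 and 45.3 CPM (1.65, SE 0.15), Rab3a at 34.5 and 27.0 CPM (1.54, SE 0.15) and Stxbp6 at 14.7 and 19.3 CPM (2.43, SE 0.24). Rab32 was lower (-3.98, SE 0.32). The neuronal marker Slc17a6 was at 0.103 CPM and Tubb3 at 2.26 CPM in pituicyte-like cells, and the whole neuronal marker list (5 genes) was at most 3.29 CPM there. Whether RNA of nerve fibres added to the Syt1 and Rab3a levels was not tested.

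Endothelial-like cells had 7 higher genes (16.6% of all genes) and 14 lower ones (9.25%). Vamp5 was higher by 3.37 (SE 0.09, edgeR adjusted p = 2.8e-19). Stx2, a plasma membrane syntaxin, was at 36.5 and 41.7 CPM (2.40, SE 0.15), Unc13d was higher by 2.40 (SE 0.23) and Rab3d by 1.33 (SE 0.17). Fibroblast-like cells had 7 higher genes (11.6% of all genes) and 3 lower ones (4.18%). Rab34 was at 128 and 99.4 CPM there (1.51, SE 0.16) and Vamp8 was lower (-1.46, SE 0.11). Syt17 was called higher (1.29, SE 0.28), a call lost with doublets kept (0.96) and without the posterior library (adjusted p = 0.21).

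Macrophage-like cells had 13 higher genes (17.5% of all genes) and 9 lower ones (16.6%). Rab3il1 (3.76, SE 0.23) and Rab32 (3.70, SE 0.17) had the largest changes. Stxbp2 (2.76, SE 0.22), Rab39a, which serves phagosomes and lysosomes (2.06, SE 0.22), and Vamp8 (1.33, SE 0.07) were also higher. Stxbp2 and Vamp8 are partners in the granule release of blood cells, and Vamp8 was at its highest level of any class here.

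Folliculostellate-like and pituicyte-like cells, both glia-like, were compared directly; their dissected sums come from the anterior and the posterior library. Of the 75 genes, 18 were higher in folliculostellate-like cells (18.6% of all genes) and 8 lower (11.7% of all genes), with median log2 changes of 0.21 over the list and 0.10 over all genes. Without the posterior library, which leaves 94 pituicyte-like cells, 11 genes were higher, 7 of them among the 18. With doublets kept, 13 were higher and 9 lower, and with every dissected sum taken over both libraries 17 and 10. The 8 lower genes, 10.7% of the list, were near the share of all genes, and the 18 higher ones were 24.0% of it.

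Unc13b was at 38.4 and 34.5 against 3.13 and 1.93 CPM (3.56, SE 0.22, edgeR adjusted p = 1.8e-12), Syt5 at 94.6 and 89.0 against 9.77 and 8.68 CPM (3.31, SE 0.19) and Rab32 at 11 and 10.8 against 1.23 and 0.964 CPM (3.1, SE 0.35). These values did not overlap. Snap25 (2.16, SE 0.21), Rab3b (2.23, SE 0.30) and Syt4 (2.14, SE 0.27) were called higher at levels of 12.3 to 26.0 CPM. For Snap25 and Syt4 these lie below every endocrine value, and for Rab3b they overlap the gonadotroph-like values and lie nearest to the lactotroph-like values of 40.0 and 38.2 CPM among the rest. The folliculostellate-like cells also held more Prl, 37796 and 29581 against 3294 and 4931 CPM in pituicyte-like cells. With free RNA subtracted the changes were 2.78 for Snap25, 3.29 for Rab3b and 2.98 for Syt4. That step removes a pooled profile from low levels on both sides, so a ratio can grow whatever the source of the RNA. Whether free RNA added to these levels was not tested. Rab3b was at 1.26 (adjusted p = 0.093) without the posterior library and 0.93 with doublets kept. Syt4 was at 0.50 (adjusted p = 0.47) without the posterior library, 1.29 (0.061) without the anterior library and 0.84 with doublets kept.

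Lower in folliculostellate-like cells were Syt1 (-1.98, SE 0.18, edgeR adjusted p = 1.5e-09), Stxbp6 (-1.83, SE 0.23) and Vamp5 (-1.20, SE 0.14). Stxbp6 was at -0.67 (adjusted p = 0.24) without the anterior library. Rims4 was at 2.64 to 3.40 CPM in folliculostellate-like cells and 0 UMIs in pituicyte-like cells, which allows up to 0.259 CPM. Vamp8 (-0.63, SE 0.09) and Vamp2 (-0.43, SE 0.10) did not reach the size rule. On the pathway list, 10 of 55 genes were higher and 6 lower. Sytl4 (granuphilin), a Rab27 and Rab3 effector on granules, was at 176.8 and 167.7 against 18.4 and 25.1 CPM (3.1, SE 0.16), and Rph3al (noc2), another Rab3 effector, at 37.9 and 35.0 against 6.17 and 4.82 CPM (2.62, SE 0.18). Syp was higher by 2.50 (SE 0.32) and was at 0.56 (adjusted p = 0.40) without the posterior library. Sv2a (-2.70, SE 0.22), Myrip (-3.25, SE 0.26) and Synpr (-3.71, SE 0.35) were lower.

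**Figure D5:**
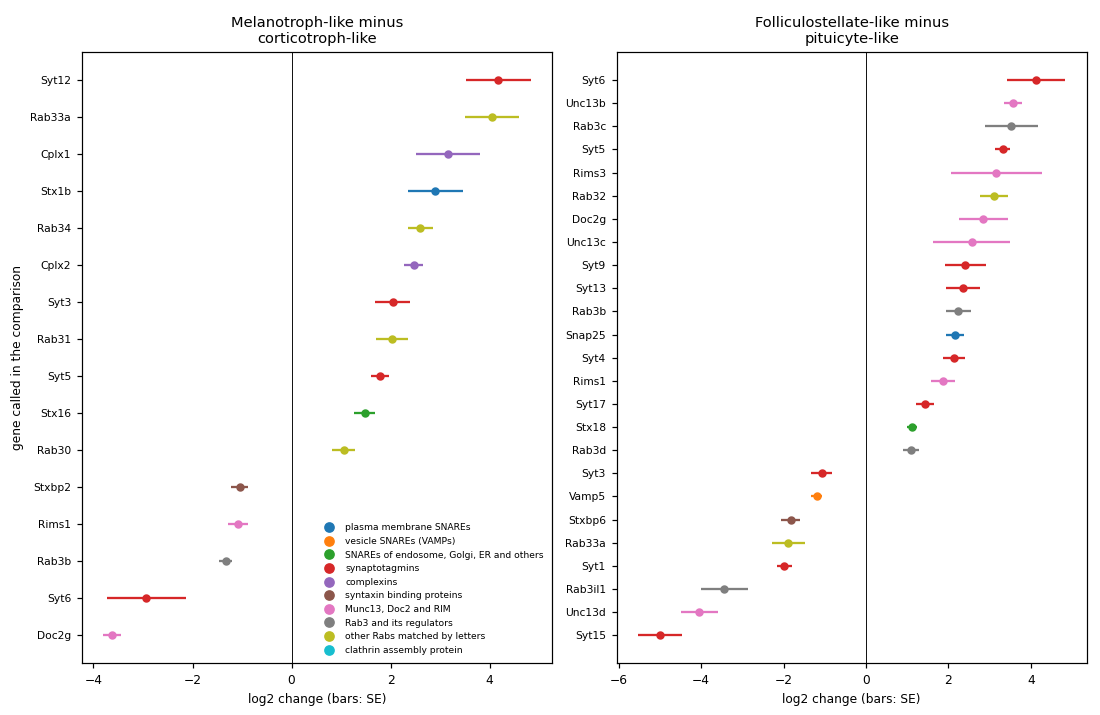
Log2 change with its SE of genes called in the comparisons of melanotroph-like minus corticotroph-like cells and of folliculostellate-like minus pituicyte-like cells; Rims4, at 0 UMIs in pituicyte-like cells, and 1 gene of the first comparison are left out. Doc2g at -3.62 lies farthest to the left in the first comparison, and Unc13b at 3.56 and Syt5 at 3.31 lie to the right in the second.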

How the data were processed

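Messenger RNA of single pituitary cells was analysed from 4 droplet libraries made with the 10x Chromium 3′ kit. The deposited matrix gives raw UMI counts for each gene in each barcode, and the submitters' processing notes name Cell Ranger 3.1. The genome build, the annotation and any equalizing of reads between libraries are not given in the sources used here. The deposited barcode list carries the library suffix per the labels, and gene symbols are those deposited with the matrix.

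A barcode had to hold 1000 or more UMIs, 500 or more genes and no more than 20% of UMIs from mitochondrial genes. This left 20381 of 32455, and 588 of them with a Scrublet score above 0.25 were left out as doublets (2.89%), which gave 19793 cells. With scanpy 1.11.5, cells were scaled to 10000 UMIs before logs were taken, and 2000 variable genes, 30 principal components, 15 neighbours and Leiden resolution 1 gave 24 clusters, of which 22 were named from markers; the 77 genes and the pathway list were left out of this step. UMIs were summed per class and preparation. Of the dissected libraries, the anterior 1 gave the anterior endocrine and folliculostellate-like sums, the posterior library the pituicyte-like and melanotroph-like sums, and both libraries the rest. Classes needed 50 cells in each preparation; thyrotroph-like cells had 49 in the anterior library and 69 in both dissected libraries and were kept.

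edgeR 4.0.16 (R 4.3.3, TMM, filterByExpr, quasi-likelihood test, terms for class and preparation) was fitted to the 22 sums and 14785 genes with 10 residual degrees of freedom. Standard errors were derived as the absolute log2 change over the root of its F statistic. Where 0 UMIs were found, 3 counts set the upper limit, which covers counting error only; the confidence level of intervals was 95%. Cells were not treated as replicates. The p-values rest only on the spread between 2 pooled preparations of 30 glands that is left after the terms for class and preparation. On simulated data for the endocrine contrast, 56 of 100 genes changed 2-fold, 100 of 100 changed 4-fold and 1 of 13222 unchanged genes were called. A 2-fold change lies at the size rule itself. The changed genes were drawn from those with at least 10 expected UMIs in every sum, so rarer genes were not covered. No other differences between classes were simulated, unlike in the real data. The term for preparation pairs sums of the same pool of glands; whole-gland sums share a suspension, while dissected sums come from 1 or both of 2 separately dispersed lobes.

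In each comparison the genes named were the 6 largest called changes per direction with at least 10 CPM and the same direction in both preparations, a set of 17 core genes, and the 3 largest changes per direction of the pathway list; the other genes named were chosen after their values were seen. The genes, lists and markers were chosen with earlier results of these data known. Alternatives were DESeq2 1.42.0 (test and size factors), no low-count filter, no term for preparation, each library left out, doublets kept, stricter cells, free RNA subtracted, hormone-rich cells left out, both dissected libraries summed, and coarser clusters. Without the anterior library, the dissected sums of the anterior endocrine and folliculostellate-like classes were made from their cells in the posterior library. That setting therefore exchanges cells and does not only remove them. Values of 1 gene are not reported here; it is part of the counts and medians.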

Additional observations from a re-analysis of the deposited data

How the results depend on the processing

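The counts of genes called kept within 1.5 times of their values under all 14 alternatives, with 2 exceptions. Both exceptions arose without the posterior library. Fewer genes were then lower in melanotroph-like than corticotroph-like cells, and fewer were higher in folliculostellate-like than pituicyte-like cells. This setting leaves the melanotroph-like and pituicyte-like classes fewer cells and a single sum each, whose spread is taken from the other classes. Leaving out 1 library at a time gave 27 to 31 genes higher and 8 to 9 lower in endocrine classes, 45 to 55 differing among endocrine and 52 to 57 among non-endocrine classes, 9 to 13 higher and 3 to 6 lower in melanotroph-like cells, and 11 to 19 higher and 6 to 8 lower in folliculostellate-like cells. Sums were paired by preparation, that is by pool of glands, since the dissected lobes were dispersed separately; without the replicate block the counts were 31, 10, 52, 58, 12, 6, 19 and 8 in the same order. Direction turned for Snap25 and Vamp2 between melanotroph-like and corticotroph-like cells, neither of which was called: Snap25 was at -0.012 with free RNA subtracted and, with 1 library left out at a time, between -0.0093 (posterior) and 0.12, and Vamp2 was between -0.023 (posterior) and 0.19. Of the log2 changes recomputed for the genes named, 1745 kept direction and call, 37 lost the call, 7 gained it (each of these for Cplx2 in endocrine classes) and 3 turned. The share of called genes that were higher in the direct comparisons moved from 64.7% to 75.0% (melanotroph-like, without the posterior library) and from 69.2% to 59.1% (folliculostellate-like, doublets kept). The median of all genes moved by up to -0.17 in the thyrotroph-like comparison, when both dissected libraries were summed. Small classes limit rare genes: the Munc13 family had as few as 9 UMIs in a sum.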

Other observations

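Values for clusters too small for the tests, and for parts of a tested class, are given as plain CPM of pooled cells with exact 95% Poisson intervals, which cover counting error only, and were not tested. The values of tested classes set beside them are normalized CPM, so the scales differ. A Schwann-like cluster (63 dissected and 20 whole-gland cells), named from myelin genes, held 77 UMIs of Syt3, or 195 CPM (154 to 244), and 64 UMIs of Rab38, or 162 CPM (125 to 207). Both were several times the highest class value of the tested classes, and both preparations gave high values: 215 and 143 CPM for Syt3 and 183 and 105 CPM for Rab38. Stx11, a syntaxin known from cytotoxic granules, was at 53.3 CPM there (33.0 to 81.5) and at 48.3 CPM (28.6 to 76.3) in a lymphocyte-like cluster of 36 dissected and 44 whole-gland cells, from 21 and 18 UMIs; in the tested classes it was at most 8.98 CPM. The lymphocyte-like cluster also held Unc13d, the priming factor of these granules, at 42.9 CPM (24.5 to 69.7) and Rab35 at 69.7 CPM (45.6 to 102).

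Folliculostellate-like cells formed 2 clusters, of 935 dissected and 1437 whole-gland cells and of 253 and 274 cells. Rab34 was at 113 CPM in the larger and 55.0 CPM in the smaller cluster, Rab38 at 48.2 and 19.4, Vamp5 at 36.7 and 10.4 and Unc13b at 45.1 and 28.6 CPM. Syt1 had the opposite order, at 8.72 and 35.5 CPM, and Syt5 was at 104 and 95.5 CPM. These orders were the same in both preparations. Among macrophage-like cells, 1 cluster held Stx3 at 21.3 CPM from 68 UMIs and Rab3il1 at 40.5 CPM, and the other held 1 UMI of Stx3 (0.505 CPM, interval 0.0128 to 2.82), Rab3il1 at 84.9 CPM and Rab3ip, an exchange factor for Rab8, at 53.1 against 11.3 CPM. The first had 84 of its 545 cells in the posterior library and the other 189 of 279, so these clusters also differ by library.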
